A study of Mus musculus with 6 samples.

Results

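Enteric neuron and glia genes are described here in the colon of control mice and of mice that lack HDAC1 and HDAC2 in intestinal epithelial cells (IEC). A set of 37 genes was named from knowledge of the enteric nervous system, with earlier results of these data known. All 37 were measured by a probe set annotated to that gene only, as were 18193 genes in all. Each gene is given by its brightest probe set, the one with the highest mean over the 6 arrays, and its other probe sets are reported as well. By the study's text, colon RNA came from 3 control mice, labelled wild type, and from 3 HDAC1/2 IEC-specific deficient mice. All were untreated, and 4 months old by the same text. The deficient mice carried floxed Hdac1 and Hdac2 and a villin-Cre transgene, which is active in the gut epithelium, so neurons and glia were not the targeted cells. The strain and the sex of the mice were not given in the sources used here.

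Neurons of the gut form the myenteric plexus, between the muscle layers, and the submucosal plexus, beneath the mucosa. Both descend from neural crest cells, which need the receptor Ret with its GDNF-binding partners, the endothelin receptor Ednrb and the transcription factors Phox2a and Sox10 to colonize the gut. Mature enteric neurons release acetylcholine, nitric oxide and peptides such as VIP, whereas enteric glia surround them and express Sox10, S100b and Gfap.

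In HDAC1/2 deficient colon, 9 of 12 genes of the neuronal cell body and cytoskeleton were lower, led by Map2, Stmn2 and Nefl, while the genes for neuronal nitric oxide synthase, most peptides and the glial factor Sox10 did not pass the test. Of 37 genes, 16 fell, 2 rose and 19 did not pass (limma adjusted p under 0.05, Benjamini-Hochberg over 45037 probe sets). The falls ran from -0.20 to -0.93 on the log2 scale with a median of -0.38, and 0 of 37 genes changed more than 2-fold. Over all 18193 genes, 50.4% passed the same test, 28.4% of all genes being lower and 21.9% higher, so the 48.6% of neuron and glia genes that passed lay near the background, with 43.2% lower and 5.41% higher. Among genes brighter than the median probe set (6.80), 36.5% of all genes were lower and 28.0% higher, against 48.5% and 6.06% of the 33 neuron and glia genes above that level. The groups did not overlap in 23 of the 37 genes (62.2%) and in 60.9% of all genes. The median log2 fold change was -0.12 over the 37 genes and -0.02 over all genes. In RNA of a whole tissue, fewer cells of a type and less RNA per cell cannot be told apart.

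Transcripts of the muscle wall were abundant on every array. The 15 smooth muscle genes averaged between 12.26 and 12.28 on the control arrays, although the sample labels name epithelium as the source. Hdac1, the first targeted gene, was at 10.56 ± 0.035 in controls against 9.27 ± 0.056 in HDAC1/2 deficient mice (SD, n = 3 each), whereas Hdac2 was at 10.94 ± 0.021 and 10.98 ± 0.054, and where its probe set lies relative to the deleted part was not known here. The Y-linked gene Eif2s3y was at 4.09 ± 0.23 in controls against 8.34 ± 0.14 in HDAC1/2 deficient mice (SD, n = 3 each). The X-linked Xist, made in female cells, was at 12.85 ± 0.034 in controls against 12.02 ± 0.033 in HDAC1/2 deficient mice (SD, n = 3 each), so transcripts of both genes were present on the deficient arrays. On the 3 deficient arrays Eif2s3y was at 8.32, 8.49 and 8.22 and Xist at 12.01, 11.99 and 12.06, so each array held both. No source used here says whether RNA of several mice was pooled. Therefore n = 3 counts arrays, and whether each array stands for a separate mouse is not known. Sex and genotype cannot be told apart. The median SD of a probe set within a group was 0.0743. The labels do not say how the mice were housed or their RNA prepared in batches, so p-values cover the spread among 3 arrays a group, which may be technical in part.

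Genes of the neuronal cell body and cytoskeleton held most of the falls. Of 12 genes, 9 fell, 0 rose and 3 did not pass, with a median log2 fold change of -0.29. Of all genes, 28.4% were lower and 21.9% higher, and of genes brighter than the median probe set 36.5% and 28.0%. Map2, which encodes a microtubule-associated protein of dendrites, had log2 values of 7.88, 7.66 and 7.81 in control and 7.02, 6.86 and 6.68 in deficient colon (log2 fold change -0.93, standard error, SE, 0.095, adjusted p = 1.59e-04 in limma). Stmn2, a regulator of microtubules in growing axons, was at 8.60, 8.48 and 8.48 in control and 7.95, 7.96 and 7.86 in deficient colon (log2 fold change -0.60, SE 0.053, adjusted p = 7.73e-05 in limma). Every deficient array was below every control array for both genes, and the level of Map2 was 52.6% of that in control colon. The neurofilament light chain gene Nefl was at 8.35, 8.19 and 8.29 in control and 7.67, 7.72 and 7.66 in deficient colon (log2 fold change -0.59, SE 0.053, adjusted p = 7.85e-05 in limma). Its partner, the medium chain gene Nefm, was at 7.68, 7.62 and 7.56 in control and 7.18, 7.17 and 7.23 in deficient colon (log2 fold change -0.43, SE 0.048, adjusted p = 2.63e-04 in limma). The groups did not overlap for either gene. The neurofilament heavy chain gene Nefh, named here after its value was seen, had a log2 fold change of -0.05 (limma adjusted p = 0.613) with overlapping groups.

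Elavl4, a neuronal RNA-binding protein gene whose product (HuD) marks enteric ganglia, was at 7.46, 7.49 and 7.19 in control and 6.98, 7.004 and 6.98 in deficient colon (log2 fold change -0.39, SE 0.079, adjusted p = 0.0057 in limma). The third control array lay nearer to the deficient arrays than the other control arrays did, yet remained above them. Smaller falls were measured in Uchl1 (-0.30), the gene of the ubiquitin hydrolase PGP9.5, in Rtn1 (-0.29), a reticulon of the endoplasmic reticulum, in Elavl3 (-0.28), a relative of Elavl4, and in Gap43 (-0.22), a protein of growth cones. The calls of Uchl1 and Gap43 lay near the threshold. Without control array 1 or 3 or deficient array 1 or 3, Uchl1 had log2 fold changes of -0.24 to -0.30 and limma adjusted p from 0.0509 to 0.0698, and without control array 3, deficient array 1 or deficient array 2, Gap43 had -0.16 to -0.21 and 0.0551 to 0.0774. Tubb3, the neuronal beta-tubulin gene, had a log2 fold change of -0.18 (limma adjusted p = 0.20) in which control array 2, at 7.07, lay below the deficient range of 7.10 to 7.18, and without that array Tubb3 was lower (-0.31, limma adjusted p = 0.00323), whereas without any other single array it did not pass (-0.11 to -0.21, limma adjusted p 0.246 to 0.462). Prph, the gene of peripherin, an intermediate filament of peripheral neurons, had a log2 fold change of -0.09 (95% confidence interval -0.19 to 0.02) and the stathmin gene Stmn3 one of -0.10 (-0.25 to 0.05).

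**Figure D1:**
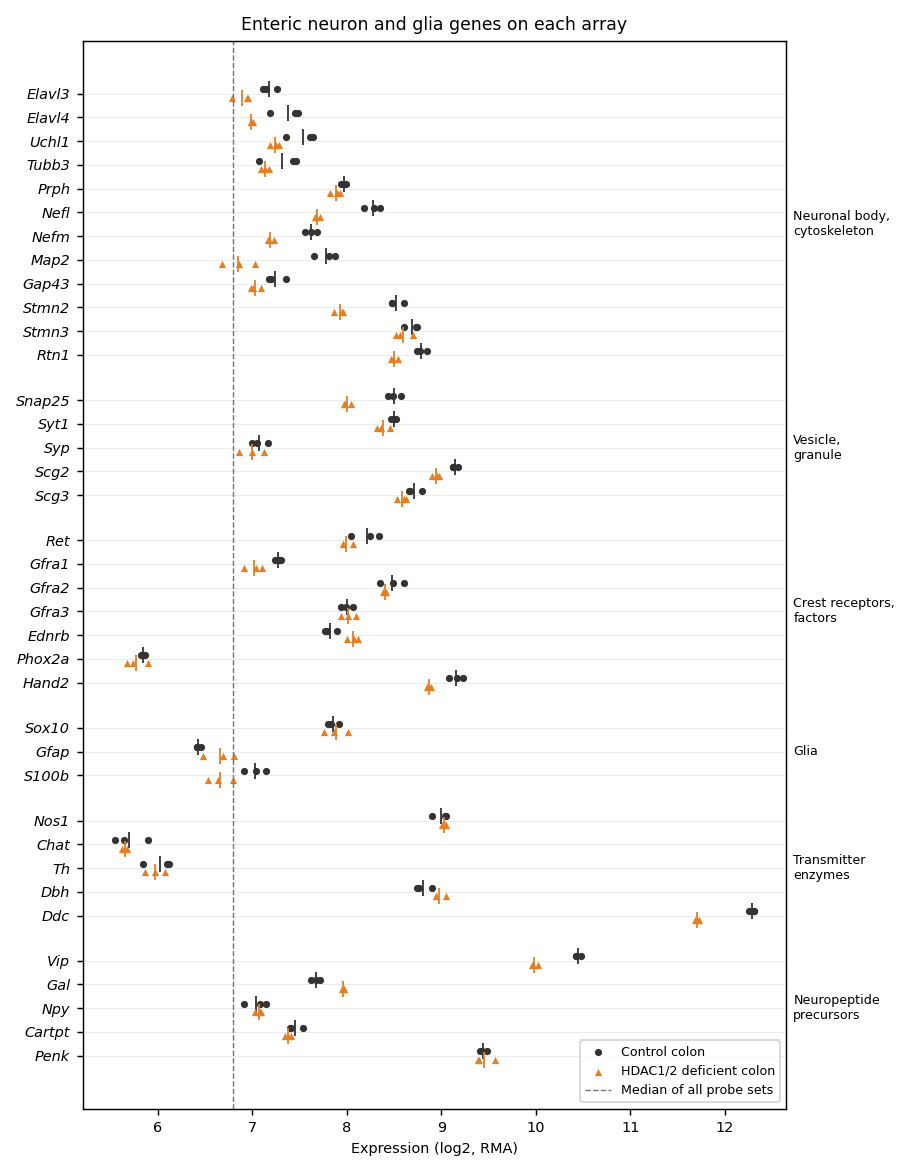
Log2 expression (RMA values, horizontal axis) of 37 enteric neuron and glia genes, by role, on each of 3 control arrays (dark circles) and 3 HDAC1/2 deficient arrays (orange triangles), with the group means as vertical ticks and the median of all probe sets (6.80) as a dashed line. The deficient arrays of Map2, Nefl, Nefm, Stmn2, Snap25, Ddc and Vip lie left of all their control arrays, those of Gal and Ednrb lie right of them, and Phox2a, Chat, Th and Gfap lie below the dashed line on average.

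Genes of synaptic vesicles and secretory granules were lower in 2 of 5 cases, and 3 did not pass. The counts here stand beside 28.4% lower and 21.9% higher of all genes. Snap25, a membrane protein of the machine that fuses vesicles with the membrane of the nerve ending, was at 8.57, 8.44 and 8.49 in control and 7.97, 8.04 and 7.98 in deficient colon (log2 fold change -0.50, SE 0.049, adjusted p = 1.27e-04 in limma). The groups did not overlap, and Snap25 was at 70.7% of its control level. Scg2, which encodes the granule protein secretogranin II, was at 9.13, 9.12 and 9.17 in control and 8.98, 8.96 and 8.90 in deficient colon (log2 fold change -0.20, SE 0.043, adjusted p = 0.00824 in limma). Scg3, a granule protein of the same family name, had a log2 fold change of -0.12 (95% confidence interval -0.25 to 0.01), Syt1, the calcium sensor of vesicle release, of -0.12 (limma adjusted p = 0.106), and Syp, the vesicle membrane protein synaptophysin, of -0.08 (-0.26 to 0.10). Chga, a granule protein gene that marks enteroendocrine cells, which also use Snap25 and secretogranins, fell by 1.24 on the log2 scale (limma adjusted p = 1.18e-06). The enteroendocrine genes went both ways, with 5 of 16 higher, led by Sct (3.81), and 6 lower, and Chga was singled out after its value was seen. Their part in the lower values of Snap25 and Scg2 was not tested.

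Receptors and transcription factors of the enteric neural crest went both ways. Of 7 genes, 2 fell, 1 rose and 4 did not pass, beside 28.4% lower and 21.9% higher of all genes, so these counts lay near the background. Ret, the receptor kinase for ligands of the GDNF family, was at 8.34, 8.25 and 8.04 in control and 7.97, 7.95 and 8.07 in deficient colon (log2 fold change -0.21, SE 0.079, adjusted p = 0.0683 in limma). Control array 3 lay within the deficient range, and without it Ret was lower (-0.30, limma adjusted p = 0.00911), whereas without any other single array it did not pass (-0.15 to -0.25, limma adjusted p 0.0771 to 0.183). Gfra1, the GDNF-binding partner of Ret, fell by 0.26 on the log2 scale (SE 0.057, adjusted p = 0.00811 in limma), whereas Gfra2 and Gfra3, which bind neurturin and artemin, had log2 fold changes of -0.08 (95% confidence interval -0.23 to 0.08) and 0.02 (-0.12 to 0.15). Hand2, a transcription factor of enteric neuron differentiation, was at 9.16 ± 0.073 in controls against 8.87 ± 0.021 in HDAC1/2 deficient mice (SD, n = 3 each) and fell by 0.29 (limma adjusted p = 0.00224). Ednrb, the endothelin 3 receptor gene, was at 7.90, 7.79 and 7.77 in control and 8.08, 8.001 and 8.11 in deficient colon (log2 fold change 0.25, SE 0.053, adjusted p = 0.00771 in limma), with no overlap between the groups. Ednrb is also made by cells outside the nervous system, such as endothelial cells, and their part in its rise was not tested. Of 10 endothelial genes, 7 fell and 1 rose, beside 28.4% lower and 21.9% higher of all genes. Emcn (-0.48), Cldn5 (-0.37) and Cdh5 (-0.36) were among the falls, and Egfl7 (0.34) rose. Their summed linear signals were 2556 to 2667 in control and 2316 to 2459 in deficient colon. Phox2a, a factor needed for autonomic neurons, was dim, at 5.86, 5.83 and 5.84 in control and 5.74, 5.68 and 5.89 in deficient colon (log2 fold change -0.07, limma adjusted p = 0.39), a level below the median probe set.

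The 3 glial genes did not share a direction. Sox10, the transcription factor that defines enteric glia and their precursors, was at 7.83, 7.92 and 7.80 in control and 7.86, 8.02 and 7.76 in deficient colon (log2 fold change 0.03, 95% confidence interval -0.13 to 0.19, limma adjusted p = 0.779). The ranges of the groups overlapped throughout. S100b, a calcium-binding protein of glia, was at 6.92, 7.04 and 7.14 in control and 6.53, 6.80 and 6.63 in deficient colon (log2 fold change -0.38, SE 0.083, adjusted p = 0.00821 in limma). Gfap, the glial intermediate filament gene, was at 6.41, 6.46 and 6.41 in control and 6.48, 6.80 and 6.69 in deficient colon (log2 fold change 0.23, SE 0.079, adjusted p = 0.0532 in limma). All Gfap values on the deficient arrays were above those on the control arrays, and without deficient array 1 the gene passed the test (0.32, limma adjusted p = 0.00553), but without any other single array it did not (0.16 to 0.25, limma adjusted p 0.0878 to 0.135). Its other probe sets had log2 fold changes of 0.10 and -0.22, neither past the test, and the mean of all 3 had 0.03 (limma adjusted p = 0.59).

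Enzymes that make neurotransmitters were led by Ddc, and the other 4 did not pass. Ddc encodes the aromatic amino acid decarboxylase, which makes serotonin and dopamine in neurons and in cells of the gut epithelium. It was the brightest of all 37 genes, at 12.31, 12.25 and 12.31 in control and 11.73, 11.71 and 11.68 in deficient colon (log2 fold change -0.58, SE 0.041, adjusted p = 2.51e-05 in limma), without overlap. Th and Dbh, the genes of the enzymes before and after Ddc in noradrenaline synthesis, which in the gut mark sympathetic nerve fibers and some enteric neurons, did not pass. Th was at 5.85, 6.12 and 6.09 in control and 5.87, 5.97 and 6.08 in deficient colon (log2 fold change -0.05, 95% confidence interval -0.25 to 0.15), and Dbh had a log2 fold change of 0.17 (0.03 to 0.31, limma adjusted p = 0.0526). Nos1, the neuronal nitric oxide synthase of inhibitory motor neurons, was at 9.04, 9.05 and 8.91 in control and 9.05, 9.01 and 9.04 in deficient colon (log2 fold change 0.04, 95% confidence interval -0.08 to 0.16, limma adjusted p = 0.63). Chat, the enzyme of acetylcholine synthesis in excitatory motor neurons and also in epithelial tuft cells, was at 5.55, 5.89 and 5.64 in control and 5.67, 5.63 and 5.66 in deficient colon (log2 fold change -0.04, 95% confidence interval -0.24 to 0.15). Both Th and Chat were below the level of the median probe set, where RMA values carry background and changes are compressed.

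Among 5 neuropeptide precursor genes, Vip fell, Gal rose and 3 did not pass, beside 28.4% lower and 21.9% higher of all genes. Vip, the precursor of vasoactive intestinal peptide, which relaxes gut muscle and drives secretion, was at 10.43, 10.42 and 10.48 in control and 9.96, 9.97 and 10.02 in deficient colon (log2 fold change -0.46, SE 0.042, adjusted p = 8.93e-05 in limma). Gal, the precursor of galanin, was at 7.67, 7.72 and 7.62 in control and 7.95, 7.97 and 7.97 in deficient colon (log2 fold change 0.29, SE 0.044, adjusted p = 0.00117 in limma). The groups did not overlap for either gene, and the SD within groups was at most 0.052. Penk, the precursor of the opioid enkephalins, was at 9.44 ± 0.039 in controls against 9.45 ± 0.10 in HDAC1/2 deficient mice (SD, n = 3 each), with a log2 fold change of 0.01 (95% confidence interval -0.13 to 0.15). Npy, the neuropeptide Y gene of submucosal and sympathetic neurons, had a log2 fold change of 0.02 (-0.13 to 0.18), and Cartpt, a peptide gene of myenteric neurons, one of -0.07 (-0.19 to 0.05).

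**Figure D2:**
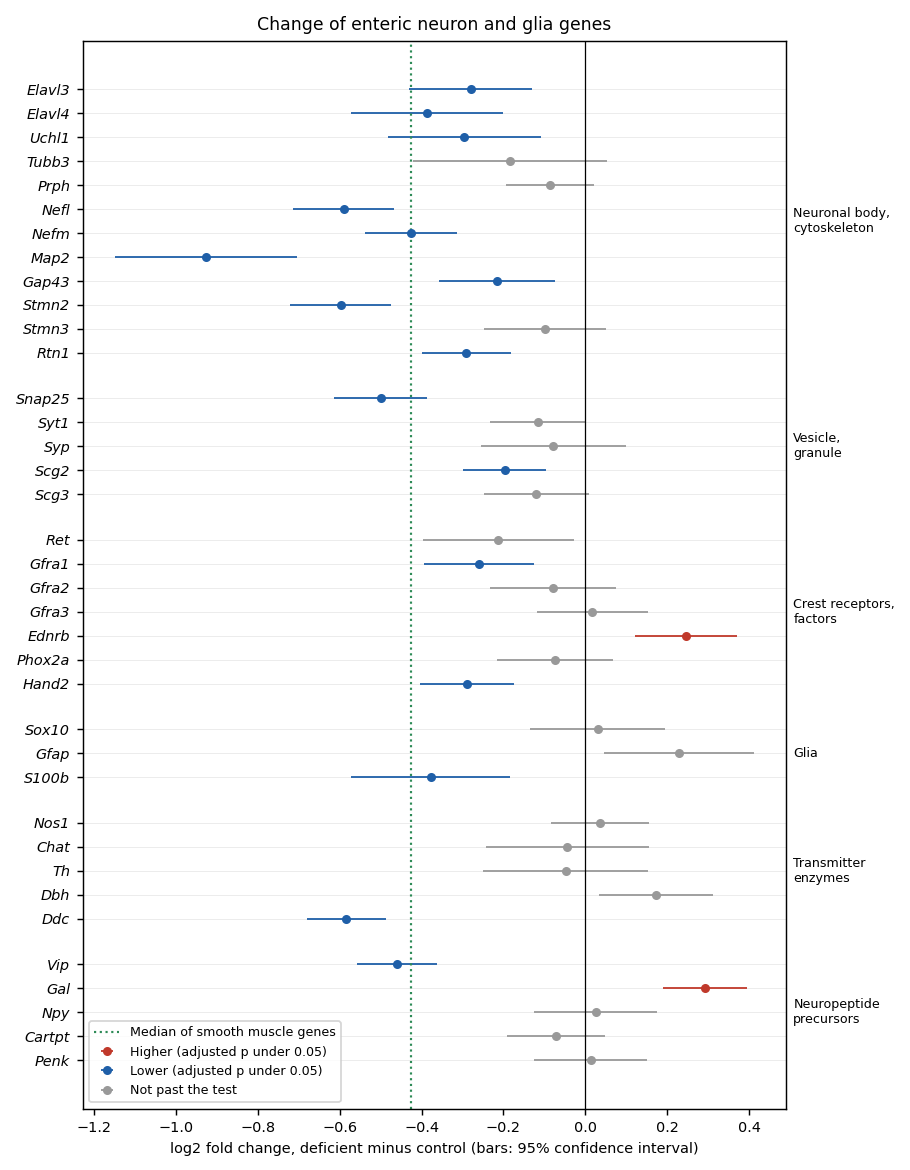
Log2 fold change (deficient minus control, horizontal axis) of each of the 37 genes, by role, with 95% confidence intervals from limma over 3 arrays per group. Blue points fell, red points rose and gray points did not pass at an adjusted p under 0.05, and the dotted line is the median of 15 smooth muscle genes (-0.43), left of which lie Map2, Stmn2, Nefl, Ddc, Snap25 and Vip, with Nefm on it.

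Several genes of this set are known targets of cyclic AMP signaling through the cyclic AMP response element (CRE), whose full form is TGACGTCA and reads alike on both strands. The RefSeq table of promoters, from 250 bases before to 50 bases after each start site (build GRCm38.p6), held 27 of the 37 genes. The full motif was present in 3 of them, Scg2, Th and Cartpt, against 2.03% of all 27025 genes in the table. Its shorter form, TGACG on either strand, which the full form contains, was present in 12 of the 27 genes and in 23% of all genes. It lay 79 bases before the start site of Vip and 19 bases after that of Gal. The full motif began 68 bases before the start site in Scg2, 45 in Th and 112 in Cartpt. The last 150 bases before the start sites of these 4 genes, on the strand of the gene, are shown because they hold the full motif or, for Vip, the shorter form in the peptide gene that fell. Capitals mark the motif. The windows lie at chr1:79440027-79440176 (minus strand) for Scg2, chr10:5639068-5639217 (plus strand) for Vip, chr7:142899996-142900145 (minus strand) for Th and chr13:99900684-99900833 (minus strand) for Cartpt.
Scg2: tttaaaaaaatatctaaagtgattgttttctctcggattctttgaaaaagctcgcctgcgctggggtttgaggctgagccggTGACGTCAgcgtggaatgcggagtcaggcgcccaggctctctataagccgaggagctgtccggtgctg
Vip: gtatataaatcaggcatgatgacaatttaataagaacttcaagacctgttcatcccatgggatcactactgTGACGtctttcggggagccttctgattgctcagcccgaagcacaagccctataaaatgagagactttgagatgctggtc
Th: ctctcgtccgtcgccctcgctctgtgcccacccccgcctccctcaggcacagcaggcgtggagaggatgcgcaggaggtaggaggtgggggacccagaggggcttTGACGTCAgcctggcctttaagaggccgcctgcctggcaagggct
Cartpt: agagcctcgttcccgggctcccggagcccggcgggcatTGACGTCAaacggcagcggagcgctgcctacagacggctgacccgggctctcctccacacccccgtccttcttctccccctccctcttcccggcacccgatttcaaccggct
Of the genes with the full motif, Scg2 fell and Th and Cartpt did not pass, and of Vip and Gal, which hold the shorter form, one fell and one rose. These matches describe letters in the windows only.

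More than 1 probe set was available for 21 of the 37 genes, 77 probe sets in all. In the direct comparison of the groups, no gene had probe sets called in opposite directions, 13 had the same call in all of them, and 8 differed in part. All probe sets of Nefl, Stmn2, S100b and Ddc were lower, and the dimmer ones had log2 fold changes of -0.62 for Nefl, -0.66 for Stmn2, -0.45 for S100b and -0.39 for Ddc. Map2 was less uniform. Beside its brightest probe set (7.32 on average over the 6 arrays, -0.93), one at 4.17 was lower as well (-0.28, limma adjusted p = 0.00468) and those at 4.99 and 3.80 did not pass (0.12 and 0.08). Elavl4 fell in 2 of its 3 probe sets (-0.39 and -0.44, with -0.17 in the other). For Elavl3, Gfra1, Hand2, Snap25 and Ednrb the call came from the brightest probe set alone, and the others were at a mean log2 level of 6.86 or less. These had log2 fold changes of -0.05 and -0.12 for Elavl3, -0.16 and 0.02 for Gfra1, -0.01 and -0.26 for Hand2, -0.10 for Snap25 and 0.16 and 0.03 for Ednrb. Nos1 had 4 probe sets, with log2 fold changes of 0.04, -0.06, -0.06 and, in the dimmest, -0.33 (limma adjusted p = 0.00149), and as the mean of all 4 the gene was lower (-0.10, limma adjusted p = 0.0315). Dbh had 0.17 in its brightest probe set, which has a name that marks shared sequence, and 0.11 and -0.03 in the others. The 5 probe sets of Gfra2 lay between -0.08 and -0.04 and the 3 of Sox10 between 0.02 and 0.06, and none of these passed. None of the remaining probe sets passed either. They were at -0.03 for Ret, -0.01, -0.10 and 0.21 for Syt1, -0.06, -0.07 and -0.0035 for Prph, -0.20 for Stmn3 and -0.05 for Syp.

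**Figure D3:**
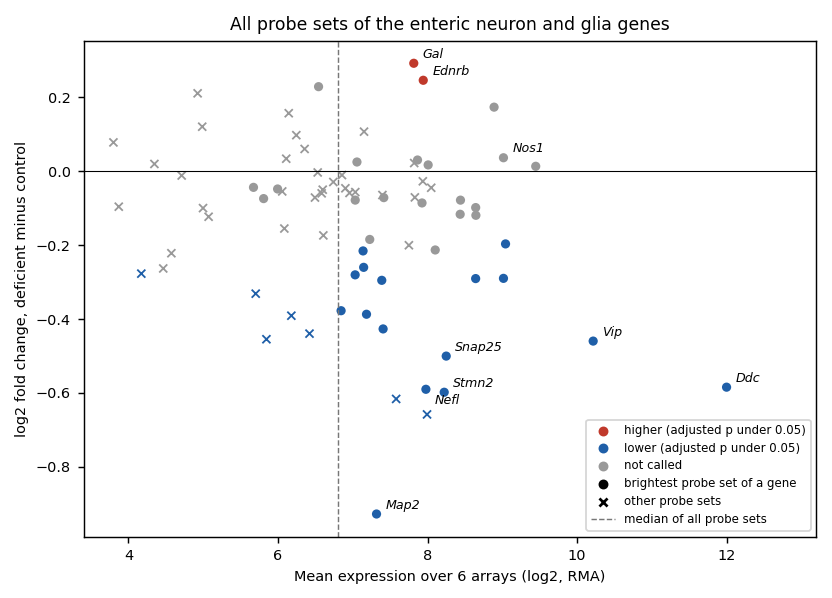
Log2 fold change (deficient minus control, vertical axis) against the mean log2 expression over 6 arrays (horizontal axis) of all 77 probe sets of the 37 genes. Circles are the brightest probe set of a gene, crosses the others, blue and red mark those lower and higher at an adjusted p under 0.05, and the dashed line is the median of all probe sets (6.80). All 18 genes that passed lie right of the dashed line by their brightest probe set.

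Further genes of the enteric nervous system, listed by role, fell and rose in part. Of 19 other neuronal structure genes, 5 fell and 0 rose (median log2 fold change -0.05). The largest changes were in the sodium channel gene Scn3a (-0.75), in L1cam (-0.45), an adhesion molecule of axons that epithelia express too, and in Celf4 (-0.38), an RNA-binding protein gene. Of 18 other synaptic and secretory genes, 6 fell and 1 rose (median -0.05), with falls in Syn2 (-0.74), which encodes the vesicle protein synapsin II, in Pcsk1n (-0.59), an inhibitor of a prohormone convertase, and in Cpe (-0.45), a peptide-processing carboxypeptidase. Of 17 other glia genes, 6 fell and 4 rose (median -0.10). Entpd2, an ectonucleotidase of enteric glia, fell by 0.71, Erbb3, a neuregulin receptor of glia that the epithelium also makes, by 0.70, and Apod, a lipid carrier, rose by 0.66 on the log2 scale. Each count stands beside the 28.4% lower and 21.9% higher of all genes.

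Among genes for transmitters, their receptors and crest signals, 5 changed by more than 1 on the log2 scale, and 0 of the 37 genes above did. The share of all genes, 28.4% lower and 21.9% higher, stands beside each count of falls and rises in this paragraph. Of 18 other transmitter and peptide genes, 6 fell and 2 rose. Tac1, the precursor of substance P in excitatory motor neurons and enterochromaffin cells, was at 10.37 ± 0.035 in controls against 12.21 ± 0.021 in HDAC1/2 deficient mice (SD, n = 3 each; log2 fold change 1.84, SE 0.041, adjusted p = 1.16e-07 in limma). Gch1, which makes the cofactor of nitric oxide synthases and of Th and is induced in activated immune cells, rose by 1.90 (limma adjusted p = 1.06e-07), and Calcb, a CGRP peptide of sensory neurons, fell by 0.58. Of 13 receptors of enteric neurons, 2 fell and 0 rose, namely the neuropeptide Y receptor gene Npy1r (-1.29) and the serotonin receptor gene Htr4 (-1.08), and the next in size, the substance P receptor gene Tacr1, had -0.09 (limma adjusted p = 0.208). Of 14 other crest signaling genes, 4 fell and 2 rose. Nrg1, the neuregulin ligand of Erbb3, rose by 1.33 from 5.83 ± 0.17 to 7.15 ± 0.11 (SD, n = 3 each), the axon guidance gene Ntn1 fell by 0.53, and Gdnf, the ligand of Ret and Gfra1, fell by 0.35 from a dim level of 5.87 in control colon.

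Markers of muscle and most markers of interstitial cells were lower beside the neuronal genes, whereas leukocyte genes were higher, and their part in the result was not tested. Each count of a cell type stands beside the 28.4% lower and 21.9% higher of all genes. All 15 smooth muscle genes fell, with a median of -0.43, led by Des (-0.69), Myocd (-0.67) and Synpo2 (-0.62), and their summed linear signal was 123612 to 124216 in control and 97663 to 99213 in deficient colon. Of 5 genes of interstitial cells of Cajal, the pacemaker cells beside the myenteric plexus, 4 fell, with Kit at -0.99, Ano1 at -0.65 and Thbs4 at -0.54 among them. The other gene, Prkcq, did not pass (0.29, limma adjusted p = 0.0525), with every deficient array above every control array. The sum of the 5 genes was 17550 to 17959 in control and 11631 to 11755 in deficient colon. Genes of leukocytes rose in 11 of 12 cases, with a median of 1.04 and sums of 12145 to 12465 and 21277 to 21574, led by the B cell receptor gene Cd79b (1.65), Laptm5 (1.58) and Coro1a (1.51). Of 10 fibroblast genes, 5 fell and 2 rose, with Lum at -0.89, Dpt at -0.44 and Col1a1 at -0.37, and the sums were 33350 to 33778 and 30977 to 31613. Of 12 epithelial genes, 5 rose and 3 fell, with Krt20 at 0.67, Car1 at 0.57 and Cdx2 at 0.56, and the sums were 169699 to 170522 and 183054 to 184968. Tuft cell genes, beside Chat, fell in 2 and rose in 1 of 7 cases, with sums of 1172 to 1196 and 1111 to 1156, and Trpm5 was at -0.35, Alox5 at -0.26 and Dclk1 at 0.21.

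Set against the smooth muscle genes of the same array, most neuron and glia genes were higher and a few were lower still. When the mean of the 15 smooth muscle genes was subtracted from each array, a mean that was 0.44 lower on the deficient arrays, 27 of the 37 genes were higher, 4 lower and 6 did not pass (limma adjusted p under 0.05). These are 73.0% and 10.8% of the set, against 81.8% and 7.46% of all genes, so the higher share lay below the background. The 4 genes lower relative to muscle were Map2 (-0.49, limma adjusted p = 0.00117), Stmn2 (-0.16, limma adjusted p = 0.0213), Nefl (-0.15, limma adjusted p = 0.0242) and Ddc (-0.15, limma adjusted p = 0.00852). By its brightest probe set, Map2 remained lower in each alternative run. Its dimmer probe sets were higher relative to muscle (0.16, 0.56 and 0.52, limma adjusted p 0.0185 or less). The calls of Map2 thus went both ways here. The dimmer probe sets of Nefl (-0.18, limma adjusted p = 0.148) and Ddc (0.05, limma adjusted p = 0.34) did not pass, and that of Stmn2 was lower (-0.22, limma adjusted p = 0.00575). Against the median of the muscle list, Nefl (-0.01), Stmn2 (-0.02) and Ddc (-0.0058) did not pass, and Nefl or Stmn2 or both lost the call without control array 1 or 3 or deficient array 1 or 3 (limma adjusted p 0.0518 to 0.0766 where lost). Vip (-0.02), Nefm (0.01), Elavl4 (0.05), Snap25 (-0.06), S100b (0.06) and Uchl1 (0.14) did not pass, and the 95% confidence interval of Vip without this subtraction, -0.56 to -0.36, held the muscle value. Sox10 (0.47), Nos1 (0.48), Penk (0.45) and Gal (0.73) were higher relative to muscle. A difference within an array shows unequal change only.

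**Figure D4:**
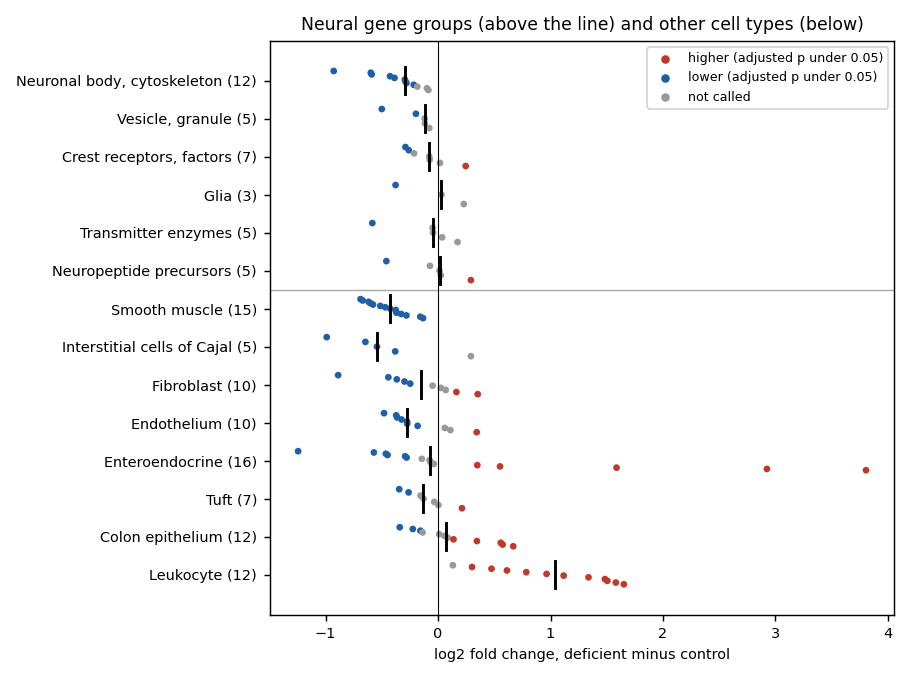
Log2 fold changes (deficient minus control, horizontal axis) of the enteric neuron and glia genes by role (above the gray line) and of marker genes of other cell types (below it), with the number of genes in parentheses. Each point is a gene, blue or red where it passed limma at an adjusted p under 0.05 and gray otherwise, with the median as a black bar, at -0.29 for neuronal body and cytoskeleton, 0.03 for glia, -0.43 for smooth muscle and 1.04 for leukocyte genes.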

How the data were processed

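By the study's text, Affymetrix GeneChip arrays of the mouse genome were hybridized with total colon RNA of 3 control mice and 3 mice deficient for HDAC1/2 in IEC. For each probe set the authors deposited a log2 value, made by RMA (background correction, quantile normalization and summary of probes) in Flexarray. RMA compresses changes of dim genes. Values ran from 2.79 to 14.85, and the number of arrays limits the precision. Of 45101 probe sets, 64 control probe sets were left out. The remaining 45037 were compared with lmFit and eBayes of limma 3.58.1, without covariates, under R 4.3.3, with Benjamini-Hochberg adjustment over all of them. Of these, 34945 carry 1 symbol in the platform annotation, 932 several and 9160 none. Only those with 1 symbol were named. All fold changes are deficient minus control. Intervals are limma's 95% intervals. Levels of different genes are not compared per length on these arrays.

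Members and lists were chosen with earlier results of these data known. Every member is named. Values on each array are given for the called members with the largest changes (up to 8 in each direction) and for 10 defining markers, and the 3 genes with the largest absolute change are named from each other list. Chga, Nefh, Rest, Prkcq, Egfl7 and the targeted and sex-linked genes lie beyond this rule and were chosen after their values were seen. The array values of Scg2, whose fall was the smallest of those called, lie beyond this rule too. Promoter sequences are RefSeq's (GRCm38.p6), and 27 of 37 members matched. Windows were printed for their motif, so Th and Cartpt, which were not called, are among them. Arrays of a group correlated at 0.9984 to 0.9988 across probe sets, arrays of different groups at 0.9824 to 0.9828, and no 2 arrays were identical. Array scan dates were not given in the sources used here, so no batch was tested. The scripts were tested on simulated data. Alternatives were the methods' t-test, further quantile normalization, median centring, a filter at the 40th percentile of mean signal, trend and robust eBayes settings, array weights, no probe sets of shared sequence (_s_at or _x_at), the replicate block, the mean of all probe sets, and leaving out each array. Figures were drawn with matplotlib 3.10.9.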

Additional observations from a re-analysis of the deposited data

How the results depend on the processing

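The count of genes that fell was 14 to 19 under every alternative but the methods' t-test, which after Benjamini-Hochberg adjustment called 9, all among the 16, and leaving out single arrays gave 14 to 17. Genes that rose numbered 4 with only probe sets above the 40th percentile (34 genes tested, without Phox2a, Chat and Th) and 4 with trend and robust settings, in both cases Gfap and Dbh beside Ednrb and Gal, and 2 to 3 without single arrays. Ednrb and Gal rose in every alternative run, and 14 of the 16 falls were kept in each apart from the t-test, the exceptions being Uchl1 and Gap43. The median log2 fold change was -0.19 with the filter and -0.18 without probe sets of shared sequence. Genes lower relative to smooth muscle numbered 1 against the median of the smooth muscle list and 2 to 4 without single arrays. Only genes that did not pass changed sign. Without single arrays, Gfra3 ran from -0.0246 to 0.0546 (-0.015 without control array 1), Sox10 from -0.0373 to 0.0888, Nos1 from -0.0097 to 0.0609, Chat from -0.118 to 0.0551, Th from -0.134 to 0.0043 (0.0005 without control array 2), Npy from -0.0415 to 0.0738 and Penk from -0.0449 to 0.0438 (-0.003 without control array 2). Penk was at -0.0096 with array weights, Dbh at -0.0274 without probe sets of shared sequence, and Nos1 at -0.10 as the mean of its probe sets, which passed. The replicate numbers were taken as names only. Deviations of same-numbered arrays correlated at 0.096, 0.064 and -0.026, the first and second being the highest of all pairs. Values this small, from 3 arrays a group, cannot show whether the numbers carry a pairing. With the replicate block, 16 genes fell and 3 rose, Gfap being added (0.23, limma adjusted p = 0.0401), and the falls were those without the block. For the third number, the same-numbered array was not the best match. Phox2a, Gfap, Chat and Th lay below the median probe set, where the arrays resolve least.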

Other observations

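HDAC1 and HDAC2 work in a complex with the neuron-restrictive silencer factor Rest, which keeps neuronal genes off in other cells. Of 9 measured genes of this complex, 3 rose, 3 fell and 3 did not pass (median log2 fold change 0.08). Of all genes brighter than the median probe set, 28.0% were higher and 36.5% lower, so these counts lay near the background. A part of this complex in the changes of the neuronal genes was not tested. The corepressor gene Rcor3 was at 9.60 ± 0.034 in controls against 8.80 ± 0.022 in HDAC1/2 deficient mice (SD, n = 3 each; log2 fold change -0.80, limma adjusted p = 5.37e-06), Sin3a rose by 0.55 and Phf21a fell by 0.43 on the log2 scale. Rest itself was higher by 0.23 (limma adjusted p = 0.0105).

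Enteroendocrine cells share granule genes with neurons. Of 16 enteroendocrine genes, 5 rose, 6 fell and 5 did not pass. This and the counts below stand beside 21.9% higher and 28.4% lower of all genes. Sct, the secretin gene, rose by 3.81, from 8.60 ± 0.073 to 12.40 ± 0.050 (SD, n = 3 each), Nts, the neurotensin gene, by 2.92 and Cck by 1.59 on the log2 scale. Their summed linear signal was 26576 to 26994 in control and 26376 to 27151 in deficient colon. Of 7 pancreatic islet genes, which hold peptide hormones as well, 3 rose, with Ppy at 0.39, Iapp at 0.27 and Ins2 at 0.15, whereas 11 of 13 genes of pancreatic acinar cells rose, with Cela2a at 7.40, Cpb1 at 7.24 and Cpa1 at 5.64.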
